A study of Mus musculus with 8 samples.

Results

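Notch pathway genes were followed through the single nuclei RNA sequencing data of the ventricular-subventricular zone (V-SVZ), the stem cell niche of the adult mouse brain. The genes were chosen by symbol: the receptors Notch1, Notch2 and Notch3, the ligands Jag1 and Dll1, the DNA-binding protein Rbpj, and the targets Hes1, Hes5, Hey1 and Nrarp. All 10 were found among the 32285 genes of the matrices. The study set 4 mice of the genotype Tsc2 wt/wt against 4 of the genotype Tsc2 mut/mut at postnatal day 90, with 1 library per mouse. Nuclei of the dissected V-SVZ were sorted for tdTomato, a red fluorescent protein, before 10x Genomics 3′ libraries were made, so both genotypes carry the reporter. The methods name a conditional Tsc2 allele, a Nestin-CreERT2 line in which the Nestin promoter drives an inducible recombinase, and a Cre-dependent tdTomato reporter. They also describe electroporation of a plasmid coding for Cre into the lateral ventricles of neonatal pups, and tamoxifen injection of pups of the inducible line. They do not state by which of these routes recombination was induced in the mice used for the nuclei.

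Notch signalling passes between touching cells. A ligand such as Jag1 or Dll1 on one cell binds a Notch receptor on its neighbour, the receptor is cut first by ADAM proteases and then by gamma-secretase, and the freed intracellular part enters the nucleus. There it joins Rbpj, which otherwise sits on DNA with corepressors, and a Mastermind-like coactivator, and turns on Hes and Hey genes. Hes1, Hes5 and Hey1 encode repressors of proneural genes, and Nrarp encodes a short ankyrin-repeat protein that limits the signal. In the V-SVZ the pathway is known for holding neural stem cells (NSCs) in an undifferentiated and often quiescent state, and in vessels Notch1, Notch4, Dll4 and Jag1 shape arteries and sprouts.

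The start regions of Hes5 and Nrarp are shown because these targets had their highest mean in the astrocyte or NSC class. The windows come from RefSeq on GRCm38.p6 and run from 250 bases before to 50 bases after the start, written 5′ to 3′ on the strand of the gene. Capitals mark GTGGGAA, the core to which Rbpj is known to bind, or its reverse complement.
Hes5, chr4:154960673-154960972, plus strand: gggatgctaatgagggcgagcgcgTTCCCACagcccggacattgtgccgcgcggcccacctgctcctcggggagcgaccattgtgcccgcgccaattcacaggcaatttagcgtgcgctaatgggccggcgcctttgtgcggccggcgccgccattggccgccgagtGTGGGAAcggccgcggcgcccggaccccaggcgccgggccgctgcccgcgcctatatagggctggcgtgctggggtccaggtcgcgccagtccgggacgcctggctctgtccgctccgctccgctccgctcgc
Nrarp, chr2:25180508-25180807, plus strand: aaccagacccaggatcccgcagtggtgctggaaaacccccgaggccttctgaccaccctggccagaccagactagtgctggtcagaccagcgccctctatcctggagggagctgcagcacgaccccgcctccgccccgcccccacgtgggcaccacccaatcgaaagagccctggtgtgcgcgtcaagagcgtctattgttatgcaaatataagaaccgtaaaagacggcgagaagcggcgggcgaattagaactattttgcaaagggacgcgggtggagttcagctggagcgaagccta
The Hes5 window holds 2 matches, which begin 226 and 83 bases before the start and lie on opposite strands. The Nrarp window holds 0. Of the 10 genes, 8 have such a window. Hes1 and Hey1 have none and were not searched. Of the 8, only Hes5 holds GTGGGAA on either strand. Of all 32851 windows of 300 bases, 6.38% hold it. The shorter TGGGAA, which lies within GTGGGAA, was found for Hes5 and Rbpj and is in 25.6% of all windows. A match is a run of letters, not a measured site.

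Libraries held 11182335 to 36773832 unique molecular identifiers (UMIs, each counting 1 captured RNA molecule). Of 37881 barcodes with at least 300 genes, 3470 (9.16%) had under 20% mitochondrial UMIs and are called nucleus-like, and the other 34411 are called mitochondria-rich. Nuclei were placed in a class when they held at least 3 markers of one fixed list and at least 2 more than of any other. This gave a class to 3227 nuclei. Of the libraries, 1 stood apart. In Tsc2 mut/mut replicate 4, 89.3% of classed nuclei were choroid plexus and 2.67% astrocyte or NSC, against 7.5% to 14.4% and 36.4% to 39.6% in the other Tsc2 mut/mut libraries, and Xist was at 99.1 CPM (UMIs of the gene per 1000000 non-mitochondrial UMIs) against 1172 to 1939 in the other 7. Tsc2 itself ranged from 13.1 to 17.1 CPM in nucleus-like barcodes of Tsc2 wt/wt mice and from 10.1 to 23.6 in those of Tsc2 mut/mut mice, which overlapped. The deleted part of the gene is not given in the sources used here, so a 3′ count does not check the genotype. Genotype below is that of the mouse. Whether the nuclei of a given class, such as microglia, had lost Tsc2 was not tested. Of the nucleus-like barcodes, 1 barcode sequence was found in more than 1 library.

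Levels below are CPM, from UMIs summed over the nuclei of a class in each mouse, for mice with at least 10 such nuclei. The classes were astrocyte or NSC (1216 nuclei, 7 mice), oligodendrocyte (561, 7 mice), microglia (518, 7 mice), choroid plexus (453, 7 mice), ependymal (250, 6 mice), inhibitory neuron or neuroblast (97, 4 mice) and endothelial (72, 4 mice). Every listed marker of each of these classes was at least 1.5-fold above its level in the other classed nuclei. The same markers had placed the nuclei, so this was built in and does not check the classes. The astrocyte and NSC markers do not part quiescent NSCs from astrocytes, so these are 1 class here. Each class was compared with the other classed nuclei of the same mice by edgeR's quasi-likelihood test with the mouse as a block, and adjusted p-values are Benjamini-Hochberg values over all genes tested. None of the 10 genes was used as a marker or in clustering. Other genes of the pathway were not kept out of clustering.

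**Figure D1:**
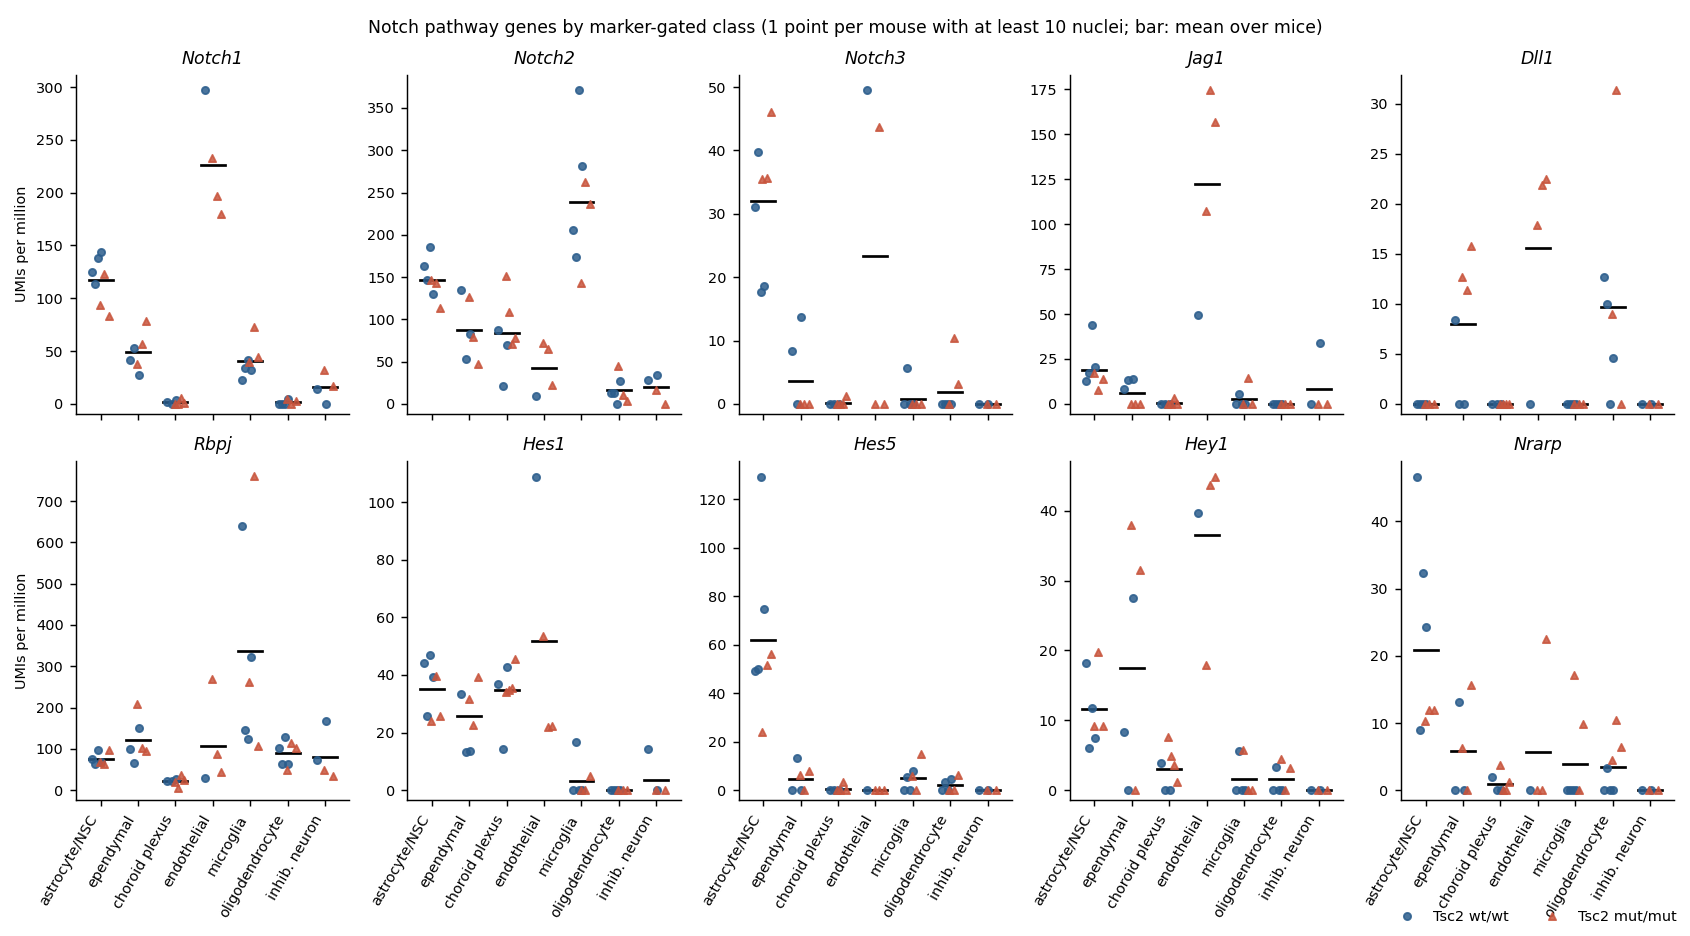
Level of each Notch pathway gene (y axis, CPM, own scale per gene) in 7 marker-gated classes (x axis). Each point is a mouse with at least 10 nuclei of the class and the bar is the mean over mice. Hes5 stands out in the astrocyte or NSC class with a mean of 62.1, Jag1 in the endothelial class with 122, and Rbpj in the microglia class with 337 and the widest spread.

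The receptors differed in where they were found. Notch1, which lies on chromosome 2 from 26457903 to 26516663 of GRCm38, was highest in endothelial nuclei at 226 ± 52.0 (SD, n = 4). The mice had 297, 233, 196 and 180, all above every astrocyte or NSC value, while the 3 mice with fewer than 10 endothelial nuclei had 142, 381 and 96.0. Astrocyte or NSC nuclei followed at 117 ± 22.1 (n = 7), with a lowest mouse of 83.0, a median of 123 and a highest of 144. No ependymal (49.2 ± 17.8, n = 6) or microglial (41.0 ± 15.8, n = 7) value reached that range, and those classes overlapped each other. Oligodendrocytes held 3 Notch1 UMIs in all, and choroid plexus 6. Notch1 was higher in the astrocyte or NSC class than in the other nuclei by 1.91 on the log2 scale (SE 0.22, adjusted p = 3.2e-06) and in the endothelial class by 1.72 (SE 0.32, adjusted p = 3.1e-07). It was lower in oligodendrocytes (-4.88, SE 0.45, adjusted p = 6.6e-08), choroid plexus (-4.21, SE 0.45, adjusted p = 5.8e-12), microglia (-1.07, SE 0.28, adjusted p = 0.0027) and inhibitory neurons or neuroblasts (-2.004, SE 0.71, adjusted p = 0.019). The last call rests on 4 UMIs and was lost without Tsc2 wt/wt replicate 2 (adjusted p = 0.12), Tsc2 wt/wt replicate 4 (0.057) or Tsc2 mut/mut replicate 3 (0.068). In oligodendrocytes, choroid plexus and inhibitory neurons or neuroblasts, Notch1 passed the filter on low counts only through the other nuclei, where it is high. The p-values of those classes are descriptions only.

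Notch2 (chromosome 3, 98013527 to 98150361) had a different order. Microglia were at 239 ± 75.7 (n = 7; lowest 143, median 236, highest 371) and astrocytes or NSCs at 147 ± 22.9 (n = 7; lowest 113, median 146, highest 185). These ranges overlapped, as did those of each next pair down the order: ependymal 87.1 ± 36.4, choroid plexus 83.9 ± 39.6, endothelial 42.3 ± 30.8, inhibitory neuron or neuroblast 19.7 ± 15.1 and oligodendrocyte 15.9 ± 15.4. Notch2 was higher than in the other nuclei in astrocytes or NSCs by 0.88 (SE 0.17, adjusted p = 0.00042) and in microglia by 0.81 (SE 0.21, adjusted p = 0.0026), where the call was lost with a mitochondrial limit of 10% (0.49, adjusted p = 0.078). It was lower in endothelial nuclei (-1.81, SE 0.47, adjusted p = 0.00048), oligodendrocytes (-2.71, SE 0.33, adjusted p = 2.1e-06) and inhibitory neurons or neuroblasts (-2.66, SE 0.66, adjusted p = 0.00041). These calls rest on 11, 23 and 4 UMIs in the class. Notch2 passed the filter on low counts there through the other nuclei, where it is higher, so these p-values are descriptions only. Endothelial nuclei thus held much Notch1 with little Notch2, and microglia the reverse.

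Notch3 (chromosome 17, 32120820 to 32166852, the chromosome that also carries Tsc2) was measured mainly in astrocytes or NSCs, at 32.1 ± 10.6 (n = 7; lowest 17.6, median 35.5, highest 46.1). It was higher there than in the other nuclei by 3.84 on the log2 scale (SE 0.42, adjusted p = 2.4e-06). Notch3 passed the filter on low counts in no other class comparison. It could be tested only where it is high, so this p-value is given as a description only. Of the other classes, endothelial nuclei held 7 UMIs, from 2 of 4 mice, and the remaining 5 classes held 0 to 3 UMIs each. The pericytes and smooth muscle cells for which Notch3 is known in vessels were not sampled as a class, since only 2 nuclei passed the mural or fibroblast gate.

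The ligands were thinly counted. Jag1 (chromosome 2, 137081456 to 137116644) was highest in endothelial nuclei, with 49.5 in the 1 Tsc2 wt/wt mouse that had 10 nuclei and 107, 175 and 157 in the 3 Tsc2 mut/mut mice. Each of those values lay above every astrocyte or NSC value, the highest of which was 44.1. Endothelial Jag1 exceeded that of the other nuclei by 3.42 on the log2 scale (SE 0.45, adjusted p = 4.7e-13), and astrocytes or NSCs had 19.1 ± 11.7 (n = 7). Jag1 passed the filter on low counts in no other class comparison, so this p-value too is a description only. Oligodendrocytes held 0 Jag1 UMIs, which allows up to 2.29 CPM by counting error alone. Dll1 (chromosome 17, 15367354 to 15376872) had 20 UMIs in all classed nuclei, of which 10 were in oligodendrocytes, 6 in ependymal nuclei and 3 in endothelial nuclei. Astrocytes or NSCs held 0 Dll1 UMIs, which allows up to 0.668 CPM. Dll1 passed the filter on low counts in no class comparison, so it has no test there.

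Rbpj (chromosome 5, 53466152 to 53657362), the protein through which every receptor acts, was counted in every class. Its mean was 76.3 ± 14.6 in astrocytes or NSCs, 89.1 ± 30.3 in oligodendrocytes, 80.9 ± 60.6 in inhibitory neurons or neuroblasts, 108 ± 110 in endothelial and 121 ± 51.3 in ependymal nuclei, with ranges that overlapped from each class to the next. Choroid plexus nuclei had the lowest mean at 22.7 ± 9.80 (n = 7). Their highest mouse, at 37.3, lay below every astrocyte or NSC mouse but above the lowest endothelial (29.7) and inhibitory neuronal (34.4) mice. Rbpj was lower there than in the other nuclei (-1.56 on the log2 scale, SE 0.29, adjusted p = 4.3e-06). In astrocytes or NSCs Rbpj was not called (-0.24, SE 0.19, adjusted p = 0.30).

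Microglia had the highest mean Rbpj, 337 ± 262 (n = 7), and the fit put it 1.68 above the other nuclei (SE 0.32, adjusted p = 0.00017). The mice had 640, 146, 124 and 322 in Tsc2 wt/wt and 263, 760 and 108 in Tsc2 mut/mut, so the genotypes overlapped and the highest mouse was far from the lowest. A cluster of 12 nuclei, led by F13a1 and Mrc1, genes known from macrophages at the borders and vessels of the brain, held 126 of the 218 microglial Rbpj UMIs (57.8%) in 2.32% of the nuclei. Rbpj was seen in 11 of these 12 nuclei, with a median of 10 UMIs per nucleus, and they came from 6 mice. Their pooled level was 6025 (95% Poisson interval 5019 to 7173) against 114 in the other 506 microglia-gated nuclei. Without them the class was at 118 ± 43.8 (n = 7; lowest 65.1, highest 196) and its difference was no longer called (0.53, SE 0.25, adjusted p = 0.067). The nuclei were singled out after their values were seen, and clustering used the genes of the same nuclei, so their difference from the rest is a description with no test.

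**Figure D2:**
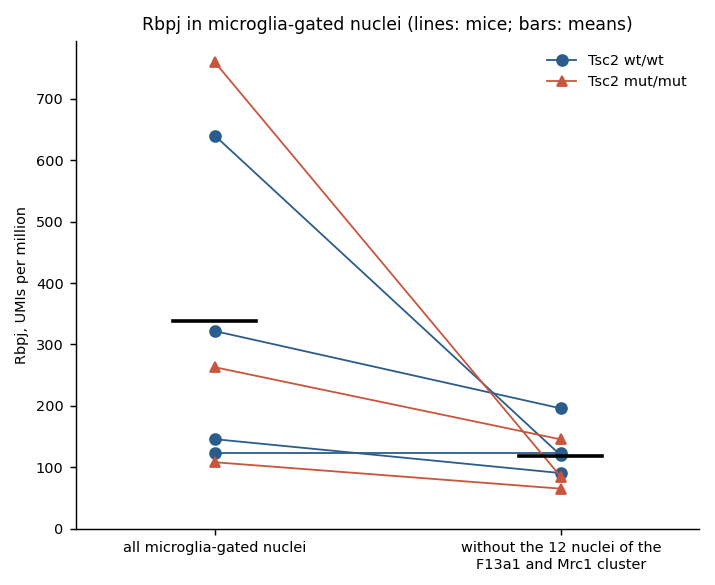
Rbpj level (y axis, CPM) in microglia-gated nuclei of 7 mice, with all nuclei (left) and without the 12 nuclei of the cluster led by F13a1 and Mrc1 (right). Each line is a mouse and the bars are means, which fall from 337 to 118; Tsc2 wt/wt replicate 3 had no such nucleus and stays at 124.

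Among the targets, Hes5 (chromosome 4, 154960923 to 154962371) had most of its UMIs in the astrocyte or NSC class, with 251 of 272 in classed nuclei. That class had 62.1 ± 33.1 (n = 7; lowest 24.1, median 51.5, highest 129), and no mouse of the other 6 classes compared reached the lowest of these. Oligodendrocyte progenitors, too few to be compared, had 34.3 in the 1 mouse with at least 10 such nuclei, from 2 UMIs. Microglia followed at 4.87 ± 5.48, and endothelial and inhibitory neuronal nuclei held 0 UMIs. The difference of the astrocyte or NSC class from the other nuclei was 3.87 on the log2 scale (SE 0.33, adjusted p = 2.4e-07). Hes5 passed the filter on low counts in no other class comparison, so this p-value is a description only. Nrarp (chromosome 2, 25180758 to 25183339) had 77 of its 96 UMIs in classed nuclei in the same class, at 20.9 ± 14.3 (n = 7; lowest 8.96, median 11.99, highest 46.7). Unlike Hes5, Nrarp overlapped with other classes. Their highest mice were at 22.4 (endothelial), 17.1 (microglia), 15.7 (ependymal) and 10.4 (oligodendrocyte), with 2 to 5 Nrarp UMIs in each of these classes. Nrarp did not pass the filter on low counts. With no filter its difference was 2.47 (SE 0.40, adjusted p = 4.4e-09).

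Hes1 (chromosome 16, 30064384 to 30067796) was spread more widely, at 51.7 ± 40.9 in endothelial (n = 4), 35.1 ± 9.60 in astrocyte or NSC (n = 7), 34.8 ± 10.0 in choroid plexus (n = 7) and 25.7 ± 10.9 in ependymal nuclei (n = 6), whose ranges overlapped. The endothelial mean is that of 1 Tsc2 wt/wt mouse at 109 and 3 Tsc2 mut/mut mice at 53.7, 21.8 and 22.4, and the level pooled over all 72 endothelial nuclei was 105. Oligodendrocytes held 0 Hes1 UMIs and microglia 4. Hes1 was called in choroid plexus (1.02, SE 0.29, adjusted p = 0.0013) and in astrocytes or NSCs (0.48, SE 0.20, adjusted p = 0.046). Neither call held when library totals were used for scaling (0.37, adjusted p = 0.20, and 0.40, adjusted p = 0.11). The choroid plexus call was also lost with a mitochondrial limit of 10% (0.61, adjusted p = 0.055). The astrocyte or NSC call was lost at that limit (adjusted p = 0.052) and with no filter on low counts (0.10). It was lost with at least 500 genes per barcode (0.067) and with Leiden clusters in place of the gate (0.058). Without any 1 of 6 mice the astrocyte or NSC call was also lost, with adjusted p-values of 0.052 to 0.10 in those fits. Hey1 (chromosome 3, 8663359 to 8667256), known for its part in arterial vessels, had 36.5 ± 12.6 in endothelial (n = 4), 17.6 ± 16.8 in ependymal (n = 6) and 11.6 ± 5.33 in astrocyte or NSC nuclei (n = 7), with 0 to 8 UMIs in each other class.

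The counts of calls belong beside those of all genes, most of which differed between classes. In astrocytes or NSCs, 5 of the 6 members that passed the filter were called, all higher, where 64.2% of all 8875 genes tested were called, 29.3% higher and 34.8% lower. In microglia 2 of 3 were higher and 1 lower (60.6% of all genes called, 23.3% higher and 37.3% lower), in endothelial nuclei 2 of 4 and 1 (44.8%, 16.8% and 28.1%), and in choroid plexus 1 of 4 and 2 (85%, 34.9% and 50.1%). In oligodendrocytes 0 of 3 were higher and 2 lower (55.6%, 23.2% and 32.5%), and in inhibitory neurons or neuroblasts 0 of 4 and 2 (30.7%, 8.85% and 21.9%). In ependymal nuclei edgeR called 0 of 3 (53.3%, 23.8% and 29.5%), of which Notch2 had an unadjusted p under 0.05. A gene that passes the filter only through the side where it is high, be it the class or the other nuclei, had to differ, so these counts rank no class. Scaling by library totals moved the median of all genes by -0.66 in choroid plexus, 0.31 in microglia, 0.24 in endothelial nuclei and -0.14 in oligodendrocytes. It turned Notch2 in choroid plexus from 0.15 (SE 0.24, adjusted p = 0.55) to -0.49 (adjusted p = 0.028), and in microglia moved the share of calls that were higher from 38.4% to 51.0%. Sums of astrocyte markers reached 5380 CPM in microglia and 4758 in ependymal nuclei against 34909 in astrocytes or NSCs, and their part in the levels of Notch1 and Notch2 there was not tested.

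For some sub-clusters of astrocyte or NSC nuclei, built without the 10 genes, pooled levels are given as a description. Among 116 nuclei led by Tnc, A330093E20Rik and Adamts9, with Gfap and Thbs4 lower in their list, pooled Notch2 was 266 (95% Poisson interval 207 to 336) and Notch3 was 23.1 (8.47 to 50.3). Another 168 nuclei, led by Gria1, B230323A14Rik and Kcnd2, had Notch2 at 109 (83.0 to 141) and Notch3 at 85.05 (62.3 to 113). A further 63 nuclei, led by Aldoc and Tubb2b, had Hes5 at 311 (178 to 505) and Nrarp at 291 (163 to 481), each from 15 or 16 UMIs, with a median of 730 UMIs and 16.8% mitochondrial UMIs per nucleus against 3376 and 6.08% over the class. The whole cluster led by Aldoc and Tubb2b held 87 nuclei and was given no class by its own markers. These levels are pooled over mice, the intervals cover counting error only, and no test was made. Over mice with at least 10 such nuclei, Notch2 was at 216 ± 84.1 (SD, n = 3) in the nuclei led by Tnc. In those led by Gria1 it was at 121 ± 27.8 (n = 5). Notch3 was at 25.0 ± 8.51 and 81.7 ± 34.1 in the same order. In the nuclei led by Aldoc, Hes5 was at 395 ± 259 and Nrarp at 365 ± 305 (n = 3). The other sub-clusters are not set out here.

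Of 55 further pathway genes, 24 to 37 passed the filter in each class comparison, and the share of them called was at or below that of all genes in most classes. It was 62.2% against 64.2% of all genes in astrocytes or NSCs, 83.3% against 85% in choroid plexus, 55.6% against 60.6% in microglia and 54.2% against 53.3% in ependymal nuclei. In oligodendrocytes it was 42.3% against 55.6%, in endothelial nuclei 27.3% against 44.8% and in inhibitory neurons or neuroblasts 12.5% against 30.7%. These counts therefore show nothing particular to the pathway, and the genes below are given as values. Which of them passed the filter on low counts only through the side where they are high was not set out. Their calls and p-values are therefore descriptions only. In astrocytes or NSCs 16 were called higher and 7 lower of 37, with the Fringe glycosyltransferase gene Lfng up by 2.94 (SE 0.34, adjusted p = 3.6e-06), the atypical ligand Dner by 2.67, the ubiquitin ligase gene Dtx1 by 2.25, and the corepressor genes Tle4, Tle2 and Tle1 by 1.77, 1.54 and 1.49. In endothelial nuclei Jag2 was up by 5.69 and Notch4 by 4.98, at 231 and 97.5 CPM, with 5 called higher and 4 lower of 33. The endothelial ligand Dll4 was at 84.97 CPM but did not pass the filter. In microglia 11 were called higher and 4 lower of 27, among them the coactivator Maml3 by 3.96 and the Notch inhibitor Numb by 3.17. In choroid plexus 4 were called higher, namely Hes6 by 3.71 and the gamma-secretase genes Psenen, Ncstn and Aph1a by 3.63, 0.89 and 0.83, and 21 lower of 30, where the median of these 30 was -2.01 and that of all genes -0.64. Maml3 was also up by 2.85 in inhibitory neurons or neuroblasts, the only gene of 32 called higher there, and Tle4, Numb and Maml2 were lower (-3.24, -1.47 and -1.24). Both Maml2 and Maml3 were lower in choroid plexus, at -5.17 and -5.58, and Maml2 was higher in astrocytes or NSCs (1.27) and ependymal nuclei (1.22). The receptor-cutting proteases Adam17 and Adam10 were higher in microglia by 1.81 and 1.03. In oligodendrocytes 4 were higher and 7 lower of 26, with the acetyltransferase gene Kat2b up by 1.73 and Itch, a ligase that turns over Notch, by 1.38. In ependymal nuclei 4 were higher and 9 lower of 24, with Mib2, a ligase for ligand uptake, up by 1.79 and Tle3 by 1.68.

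**Figure D3:**
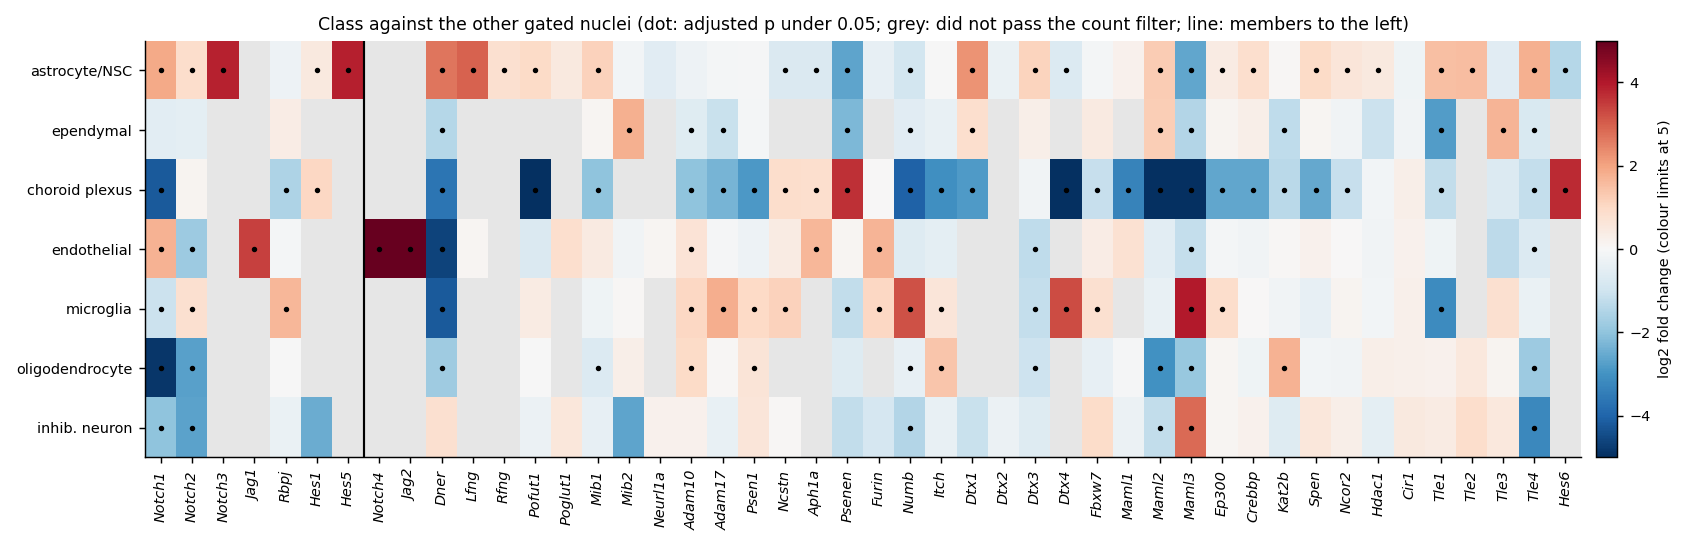
log2 fold change (colour) of Notch pathway genes (x axis, the members left of the line and the wider list right of it) in each class against the other classed nuclei of the same mice (y axis). Dots mark an adjusted p under 0.05 and grey cells did not pass the filter on low counts. A dot is a description only where the gene passed that filter just through the side where it is high. Genes higher in endothelial nuclei include Notch1, Jag1, Notch4 and Jag2, of which Notch1 was also called higher in the astrocyte or NSC class.

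Over the 7 class means of log2(CPM + 1), the genes most like a member were named as a description, with classes of very different size as points. For Hes5 they were Etnppl, 2900052N01Rik and Itih3 (Pearson r 0.976, 0.975 and 0.973), for Notch1 Tbc1d1, Utrn and Polg (0.981, 0.979 and 0.977), for Notch2 Dhrs3, Suclg2 and Nfatc1 (0.960, 0.948 and 0.937), for Hes1 Zic5, Tgfb2 and Hk1 (0.966, 0.964 and 0.963) and for Rbpj Ldlrad4, Ap1g1 and Agps (0.984, 0.983 and 0.983), among 7946 genes.

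Genotypes were compared first within the astrocyte or NSC class, the class with most Notch1, Hes5 and Nrarp UMIs. The test used 4 mice against 3, since Tsc2 mut/mut replicate 4 had 5 such nuclei. Notch1 was at 124, 113, 138 and 144 in Tsc2 wt/wt mice and at 94.0, 123 and 83.0 in Tsc2 mut/mut mice. Of the Tsc2 mut/mut mice, 2 lay below every Tsc2 wt/wt mouse and the other lay among them. The difference was -0.50 on the log2 scale (SE 0.18, unadjusted p = 0.012, adjusted p = 0.44 by edgeR). Hes5 was at 49.3, 49.8, 129 and 74.6 against 24.1, 51.5 and 56.3 (-0.81, SE 0.37, unadjusted p = 0.048, adjusted p = 0.58). Nrarp was at 46.7, 8.96, 32.3 and 24.2 against 10.3, 11.9 and 11.99 (-1.17, SE 0.50, unadjusted p = 0.031, adjusted p = 0.53). Nrarp passed the filter on low counts only through Tsc2 wt/wt mice, where its mean is higher, so its edgeR p-values are a description only. For Hes5, 1 Tsc2 mut/mut mouse lay below every Tsc2 wt/wt mouse and the other 2 lay among them. For Nrarp, 1 Tsc2 wt/wt mouse lay below every Tsc2 mut/mut mouse and the other 3 lay above them.

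None of the 7 members tested passed the threshold there. An unadjusted p under 0.05 was found for 3, among them Nrarp, which passed the filter only through Tsc2 wt/wt mice. Of all 7099 genes tested, 0.0845% were called, 0.0423% in each direction, and 8.61% had an unadjusted p under 0.05. The 7 members, Nrarp included, had a median of -0.50 and all genes one of -0.0024. Notch2 was at -0.29 (SE 0.17), Hes1 at -0.50 (SE 0.30), Notch3 at 0.41 (SE 0.30) and Rbpj at 0.033 (SE 0.21), with adjusted p-values of 0.70 to 0.99. Exact two-sided permutation tests of the mean levels, which cannot go below 0.0571 with 4 and 3 mice, gave 0.114 for Notch1, 0.343 for Hes5 and 0.229 for Nrarp. Jag1, Hey1 and Dll1 did not pass the filter.

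**Figure D4:**
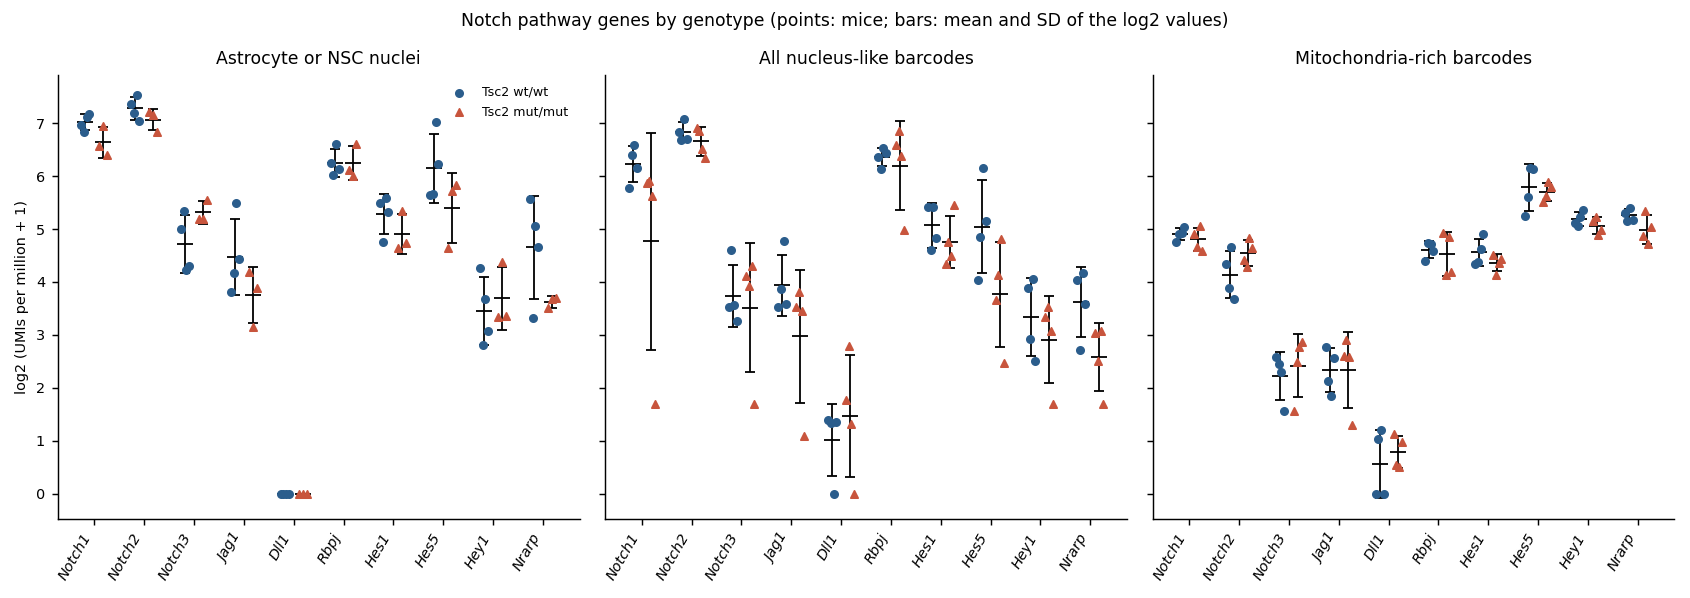
Level of each Notch pathway gene, as log2(CPM + 1), by genotype in astrocyte or NSC nuclei (4 and 3 mice), all nucleus-like barcodes and mitochondria-rich barcodes (4 and 4 mice). Points are mice and bars the mean and SD of the log2 values. Genotypes overlap for every gene with a UMI, and the lowest Tsc2 mut/mut point for Notch1 in nucleus-like barcodes, at 2.25 CPM, is replicate 4.

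In the sum of all nucleus-like barcodes, 0 of 8 members tested were called, and 0% of all 11048 genes (0 by edgeR, 1 by DESeq2). An unadjusted p under 0.05 was found for 0 of the members and for 168 genes (1.52%). In such sums fewer cells of a type and less RNA per cell cannot be told apart. Hes5 was at 15.3, 27.8, 69.9 and 34.5 in Tsc2 wt/wt mice and at 11.6, 16.5, 27.3 and 4.51 in Tsc2 mut/mut mice (-1.09, SE 0.49, adjusted p = 0.92), and Notch1 at 54.1, 82.9, 94.8 and 69.9 against 57.3, 58.9, 48.3 and 2.25 (-0.81, SE 0.54, adjusted p = 0.92). For both genes the lowest value was that of Tsc2 mut/mut replicate 4, the library with few astrocyte or NSC nuclei. Without choroid plexus nuclei, an alternative added after seeing the data, the nucleus-like difference of Hes5 was -0.82 (SE 0.42) and that of Notch1 -0.61 (SE 0.23), with edgeR adjusted p = 0.91 for both. That of Hes1 went from 0.020 (SE 0.51) to -0.86 (SE 0.29, adjusted p = 0.91) by the same step, and to -0.70 (SE 0.30) without Tsc2 mut/mut replicate 4. The part of the choroid plexus share in these values was not tested further.

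In the other classes few members could be tested between genotypes. Rbpj was at 0.087 (SE 0.38) in oligodendrocytes, 0.17 (SE 0.82) in microglia and 0.44 (SE 0.41) in ependymal nuclei, and Notch2 at -0.20 (SE 0.31) in microglia and 0.54 (SE 0.37) in choroid plexus, with adjusted p-values of 0.52 to 1.00. In oligodendrocytes 0.0769% of all genes were called (0.0513% higher and 0.0256% lower) and 7.51% had an unadjusted p under 0.05. In microglia these shares were 0.0343% (all lower) and 7.68%, and in ependymal nuclei 0% and 7.5% (177 genes). In choroid plexus they were 0.782% (0.163% higher and 0.619% lower) and 14.8%. None of these 5 member values had an unadjusted p under 0.05. Of the wider list, edgeR called 0 genes in any comparison of genotypes, with 0 to 6 genes per comparison at an unadjusted p under 0.05. By edgeR, the smallest unadjusted p-values were for Maml3 (-0.53, SE 0.15, adjusted p = 0.35) and Neurl1a (1.76, SE 0.50, adjusted p = 0.39), both in microglia. These intervals are wide, and a value that misses the threshold does not show that the genotypes are alike.

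The targets Hes5, Hey1 and Nrarp were higher in mitochondria-rich than in nucleus-like barcodes of the same 8 mice, and the receptors Notch2 and Notch3 were lower. Hes5 was at 53.8 ± 11.8 in mitochondria-rich barcodes against 25.9 ± 20.3 in nucleus-like ones, Hey1 at 34.1 ± 3.63 against 8.74 ± 4.47, and Nrarp at 34.3 ± 5.65 against 8.82 ± 5.22 (SD, n = 8). Each was lower in nucleus-like barcodes, by -1.86 (SE 0.24, adjusted p = 1.7e-05), -2.63 (SE 0.22, adjusted p = 5.4e-07) and -2.62 (SE 0.23, adjusted p = 8.2e-07) on the log2 scale. Both kinds are sums over cell types whose mix was not matched. In astrocyte or NSC nuclei alone (n = 7), Hes5 had a mean of 62.1 ± 33.1, above its mitochondria-rich mean, but a median of 51.5, below it. The mice ran from 24.1 to 129 there and from 36.8 to 70.5 in mitochondria-rich barcodes, so the ranges overlapped. The means of Hey1, at 11.6 ± 5.33, and Nrarp, at 20.9 ± 14.3, were below their mitochondria-rich means. Notch2 was at 107 ± 17.3 in nucleus-like barcodes against 19.9 ± 5.32 (1.88, SE 0.17, adjusted p = 9.1e-07), with Rbpj (1.17, SE 0.17), Notch3 (1.10, SE 0.30) and Jag1 (0.73, SE 0.26) also higher (adjusted p = 3.0e-05, 0.0048 and 0.021). Jag1 lost the call without Tsc2 wt/wt replicate 2 (0.64, adjusted p = 0.0638), without Tsc2 wt/wt replicate 3 (0.52, adjusted p = 0.050) and with a mitochondrial limit of 10% (0.44, adjusted p = 0.28). Notch1 (0.28, SE 0.28, adjusted p = 0.37) and Hes1 (-0.13, SE 0.22, adjusted p = 0.60) were not called. Thus 4 of 9 members were called higher and 3 lower in nucleus-like barcodes, where 78.1% of all 11231 genes were called, 39.3% higher and 38.8% lower.

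The members called lower in nucleus-like barcodes span under 5 kb on the genome and those called higher span more. Hes5 spans 1.45 kb, Nrarp 2.58 kb, Hes1 3.41 kb and Hey1 3.90 kb, and Jag1 spans 35.2 kb, Notch3 46.0 kb, Notch1 58.8 kb, Notch2 137 kb and Rbpj 191 kb. Over all genes tested, the median was -1.64 for 1064 genes under 5 kb, -0.40 for 6256 genes of 5 to 50 kb and 1.19 for 3906 genes of 50 kb or more. Jag1 and Notch3, both called higher, went against the median of their length, in which 27.5% of genes were called higher. Hes1 was above the median of its length and Notch1 below. Barcodes with 100 to 199 genes, which were used in no class, had Hes5 at 47.1 ± 9.02, Hey1 at 31.6 ± 3.73 and Nrarp at 27.9 ± 5.54 (n = 8). In oligodendrocyte nuclei, by contrast, Hes5 was at 2.04 ± 2.69 and Nrarp at 3.52 ± 3.96. The parts of gene length and of the mix of cell types in these differences were not tested.

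**Figure D5:**
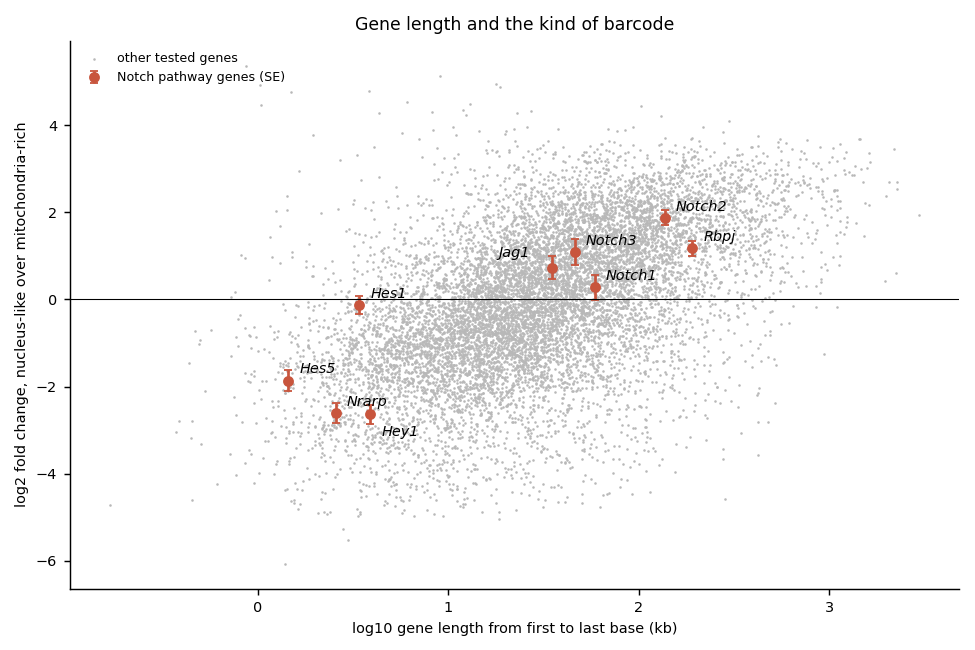
log2 fold change of nucleus-like over mitochondria-rich barcodes (y axis) against gene length on the genome (x axis, log10 kb) for all genes tested (grey) and 9 Notch pathway genes (red, bars SE). The short targets Hes5, Nrarp and Hey1 sit at -1.86 to -2.63 and the long genes Notch2 and Rbpj at 1.88 and 1.17, as most genes of their length do.

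In mitochondria-rich barcodes, which counted 1091 Hes5, 671 Hey1 and 659 Nrarp UMIs, the genotypes overlapped for every member. Hes5 was at 36.8, 47.8, 70.5 and 69.4 in Tsc2 wt/wt mice and at 44.8, 48.4, 58.4 and 54.3 in Tsc2 mut/mut mice (-0.14, SE 0.17, adjusted p = 0.77). Nrarp was at 38.5, 34.8, 41.1 and 35.2 against 28.1, 39.7, 25.2 and 31.7 (-0.29, SE 0.16, adjusted p = 0.43). Of the 8 members tested by edgeR, Notch2 was alone in passing an unadjusted threshold of 0.05 (0.46, SE 0.21, adjusted p = 0.33). Its exact permutation test gave p = 0.2, and the value lay in the direction opposite to its value in astrocytes or NSCs. Of the members 0 were called by edgeR, where 0.276% of all 10522 genes were called (0.124% higher and 0.152% lower) and 13.9% had an unadjusted p under 0.05.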

How the data were processed

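From V-SVZ nuclei, 8 libraries (10x Genomics 3′) were used, 4 per genotype. They were grouped by their titles, which read Control or TSC and were taken as Tsc2 wt/wt and Tsc2 mut/mut. The deposited matrices hold UMI counts per gene and barcode as whole numbers, which the authors made with Cell Ranger 7.0.1 on GRCm38 with 60000 barcodes set per library. Whether intronic reads were counted is not given in the sources used here. The submitters' processing notes name Seurat 4, whose output was not used here.

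Barcodes with at least 300 genes were kept. Mitochondrially encoded genes were left out of sums and totals. Marker lists sorted nuclei into classes, and nuclei without a lead of 2 markers were left out. No doublet caller was run. The scoring rule of the gate was set after looking at the data and before genotypes were compared. Leiden clusters (scanpy 1.11.5, leidenalg 0.10.2, 2000 variable genes, 30 components, 15 neighbours, resolution 1) were an alternative. UMIs were summed per mouse and tested with edgeR 4.0.16 (TMM scaling, filterByExpr, robust quasi-likelihood fit, Benjamini-Hochberg threshold 0.05) in R 4.3.3, and with DESeq2 1.42.0 as an alternative. The fits were tested on simulated data. Genotypes were to be compared in classes with at least 10 nuclei in every mouse. No class met this, so mice with at least 10 nuclei were used, a choice made after seeing the data. The members and lists were chosen with earlier results of these data known. Named genes were the members, genes of the wider list past the threshold or among the 3 with most UMIs of their role, and the 3 genes most like each member with at least 200 UMIs.

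Replicate numbers were not taken as a pairing, since the labels state none. Deviations of mice with the same number from their group means correlated at -0.70, 0.27, 0.47 and 0.20 in nucleus-like barcodes. In mitochondria-rich barcodes the values were -0.041, -0.12, -0.16 and -0.025. These values do not settle whether the mice were paired. Intervals and floors (3 counts) cover counting error only, at 95% (exact Poisson). Nothing states whether mice shared a litter or a preparation day, so p-values measure the spread between these libraries.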

Additional observations from a re-analysis of the deposited data

Results flagged for a closer look

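Among 78 groups of 4 to 7 mice, namely 72 for a member with a median of at least 5 UMIs per mouse and 6 for facts of the libraries, the highest or lowest mouse stood far from the others in 7. The rule is set to mark about 1 group in 20 when values are independent and normally distributed. These groups share mice and rest on counts, so how many chance alone would mark here is not known. Another 22 of 78 groups with a lower median did so and are not listed, since values at such counts move with single UMIs. Notch3 in nucleus-like barcodes was at 23.3 CPM in Tsc2 wt/wt replicate 2, against 8.64 to 10.9 in the other Tsc2 wt/wt mice. Jag1 in astrocytes or NSCs was at 44.1 in Tsc2 wt/wt replicate 3, against 7.92 to 20.5 in the other mice. Notch1 in microglia was at 73.0 in Tsc2 mut/mut replicate 2, against 22.9 to 44.3. Hes1 in choroid plexus was at 45.5 in Tsc2 mut/mut replicate 4, against 34.0 to 35.6 in the other Tsc2 mut/mut mice, and at 14.3 in Tsc2 wt/wt replicate 2, the lowest of all 7 mice, against 34.0 to 45.5. The share of choroid plexus among classed nuclei, 89.3%, and that of astrocytes or NSCs, 2.67%, set Tsc2 mut/mut replicate 4 apart from its group, and are shares of the same nuclei. The causes were not tested.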

How the results depend on the processing

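No member was called between genotypes in any of the alternatives run, and no member called between classes or kinds of barcode changed direction. Of 315 class values of single members under an alternative, 18 lost their call, most of them for Hes1. The 315 include values of members that were not called with the settings of the report. Counts of all genes called between genotypes depended on the settings. Without a filter on low counts they were 230 in mitochondria-rich barcodes, 146 in astrocytes or NSCs, 40 in oligodendrocytes, 9 in microglia, 18 in ependymal nuclei and 87 in choroid plexus. DESeq2 gave 1 in nucleus-like barcodes, 16 in astrocytes or NSCs and 10 in oligodendrocytes. A mitochondrial limit of 10% gave 5 in mitochondria-rich barcodes, 0 in oligodendrocytes, 4 in microglia and 17 in ependymal nuclei, and one of 30% gave 2 in astrocytes or NSCs, 8 in oligodendrocytes and 0 in microglia. A minimum of 500 genes gave 16 in mitochondria-rich barcodes, Leiden clusters gave 0, 2 and 15 in astrocytes or NSCs, microglia and choroid plexus, and keeping mitochondrially encoded genes gave 0 in microglia. The replicate number was also used as a block, though the labels state no pairing. Counts were then 0 in nucleus-like and 20 in mitochondria-rich barcodes, 4 in astrocytes or NSCs, 1 in oligodendrocytes, 0 in microglia, 0 in ependymal nuclei and 41 in choroid plexus, and 0 members were called. Leaving out 1 mouse gave 17 to 57 in mitochondria-rich barcodes, 1 to 28 in astrocytes or NSCs, 0 to 135 in oligodendrocytes, 0 to 17 in microglia, 0 to 86 in ependymal nuclei and 0 to 144 in choroid plexus.

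Between classes, no filter gave 8 members and 6777 genes in oligodendrocytes, 8 and 7259 in microglia, 3 and 5956 in ependymal nuclei, 9 and 11040 in choroid plexus, and 4 members in inhibitory neurons or neuroblasts. At 500 genes 6 members were called in endothelial nuclei. Without 1 mouse, 3 to 6 were called there (6 without Tsc2 mut/mut replicate 2) and 1 to 2 in inhibitory neurons or neuroblasts.

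The values whose direction turned were not called with the settings of the report. Between genotypes in nucleus-like barcodes, Notch2 was -0.051 with no filter, -0.23 without choroid plexus, -0.0052 at 500 genes and -0.0047 at the 10% limit. Notch3 was -0.0027 with the replicate block. Hes1 was -0.094 with no filter, -0.15 with the block, -0.86 without choroid plexus, -0.0017 at 500 genes and -0.057 at the 30% limit. In mitochondria-rich barcodes at 500 genes Notch1 was 0.45 and Rbpj 0.35, and Rbpj was 0.20 at the 10% limit. Rbpj was -0.12 with the block and -0.10 with Leiden clusters in astrocytes or NSCs, -0.16 with the block and -0.11 at the 10% limit in oligodendrocytes, and -0.063 at the 30% limit in microglia. Between classes, Rbpj was 0.11 in oligodendrocytes at the 30% limit and 0.14 in endothelial nuclei with library totals, and Notch2 in choroid plexus was -0.49 with totals and -0.42 at the 10% limit. Hes1 was 0.022 between kinds of barcode at the 30% limit.

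Leaving out 1 mouse, the nucleus-like genotype values ran -0.70 to 0.24 for Hes1, -0.16 to 0.12 for Notch2, -0.17 to 0.45 for Notch3 and -0.088 to 0.14 for Rbpj. The mitochondria-rich ones ran -0.0097 to 0.37 for Jag1 and -0.16 to 0.047 for Rbpj. Those of Rbpj ran -0.22 to 0.13 in astrocytes or NSCs, -0.16 to 0.39 in oligodendrocytes and -0.66 to 0.69 in microglia, and those of Notch2 -0.38 to 0.067 in microglia. Class values ran -1.08 to 0.24 for endothelial Rbpj, -0.15 to 0.12 for oligodendrocyte Rbpj and -0.14 to 0.35 for choroid plexus Notch2. Hes1 between kinds of barcode ran -0.45 to 0.012. The causes were not tested. Thin counts limit Dll1, Hey1, Nrarp and Jag1 most. Leiden clusters gave no value for inhibitory neurons or neuroblasts, and the 10% limit none for them or endothelial nuclei against the other classes.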

Other observations

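Endothelial nuclei were too few for a test between genotypes, with at least 10 in 1 mouse of the first group and 3 of the second, and their values were singled out after they were seen. With every mouse that had any, Hes1 was at 243, 109, 229 and 96.0 CPM in Tsc2 wt/wt mice, from 12, 11, 6 and 2 UMIs, and at 53.7, 21.8 and 22.4 in Tsc2 mut/mut mice, from 3, 1 and 1. Jag1 went the other way, at 101, 49.5, 38.1 and 48.0 against 107, 175 and 157. The highest Tsc2 wt/wt value of Jag1 lay just under the lowest of Tsc2 mut/mut. The nuclei numbered 8, 19, 3 and 5 in Tsc2 wt/wt mice and 15, 10 and 12 in Tsc2 mut/mut mice, and no test was made. The other members are not set out in this way. How many of all genes lie apart between these mice was not counted, so the separation has no background to be judged by.

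Oligodendrocyte progenitors, 51 nuclei from 8 mice with at least 10 in only 1 of them, held 14 Notch1, 9 Rbpj, 5 Hes5, 3 Hes1 and 3 Jag1 UMIs, a pooled Notch1 level of 85.5 CPM (95% Poisson interval 46.8 to 144).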
